A study of Homo sapiens with 32 samples.

Results

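The genes described here are 10 cell-surface and epithelial markers of the colon and of colorectal tumours, DPEP1, CEACAM5, CEACAM6, EPCAM, LGALS4, CDH17, GPA33, TSPAN8, SDR16C5 and CD44. They were taken by name from the RNA count files, 10 of the 57820 genes listed for HCT116, and were chosen with earlier results of these data known. HCT116 is a human colorectal cancer cell line and HEK293 a human embryonic kidney cell line. In both lines Cas9-GFP was used to delete distal elements, and RNA was sequenced from clones to ask which genes then changed. All 26 RNA libraries came from cells that had received Cas9-GFP, had been sorted for high GFP and had been grown out from single cells.

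The E7 group in HCT116 held 3 libraries of 1 clone that had received guide RNAs against the element named E7, with RNA extracted on days A, B and C. The 18qNE group held 3 clones that had received guides against the element named 18qNE, 1 library each, on days A, B and A. Their controls were 4 clones that had received the empty guide vector, each with a library on days A, B and C, which gave 12 libraries. The 18qE group held 2 clones that had received guides against the element named 18qE, sequenced on day D beside day D libraries of control clones 1 and 2. The HEK293 E7 group held 2 libraries, both labelled as deletion clone 1, set against 2 control clones, all of day E. The sources used here do not say where these elements lie, and day letters are those of the labels. A result on the E7 group in HCT116 is a result on 1 clone.

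These markers sit at the surface or in the membranes of gut epithelium. EPCAM is an adhesion molecule of most simple epithelia, CDH17 (LI-cadherin) and GPA33 are largely intestinal, and CEACAM5 (carcinoembryonic antigen) and CEACAM6 are lipid-anchored glycoproteins used as tumour antigens. CD44 is the receptor for hyaluronan. DPEP1 is a lipid-anchored dipeptidase that cleaves cystinyl-glycine, a product of glutathione breakdown, and SDR16C5 is a membrane-bound retinol dehydrogenase.

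The data divided the genes by level and by response, so promoter windows are shown for one gene lost in the E7 clone (DPEP1), for a pair near 0 counts (CEACAM5 and CEACAM6) and for one abundant in every HCT116 library (CD44). Each window is the 250 bases before an annotated start, written 5′ to 3′ on the gene's strand, from RefSeq on GRCh38.p14; 7 of the 10 genes had a window, 11 windows in all, and EPCAM, CDH17 and SDR16C5 had none. Capitals mark a motif match.
DPEP1, chr16:89630020-89630269, plus strand: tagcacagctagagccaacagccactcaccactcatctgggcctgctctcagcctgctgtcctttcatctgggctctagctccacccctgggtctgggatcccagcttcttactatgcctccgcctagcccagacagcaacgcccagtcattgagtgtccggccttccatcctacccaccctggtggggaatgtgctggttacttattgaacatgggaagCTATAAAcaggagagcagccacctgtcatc
CEACAM5, chr19:41708376-41708625, plus strand: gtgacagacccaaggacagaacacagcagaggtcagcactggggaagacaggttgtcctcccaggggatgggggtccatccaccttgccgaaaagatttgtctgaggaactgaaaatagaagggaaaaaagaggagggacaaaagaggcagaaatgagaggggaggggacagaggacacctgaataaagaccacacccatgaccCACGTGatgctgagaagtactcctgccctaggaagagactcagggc
CEACAM6, chr19:41755280-41755529, plus strand: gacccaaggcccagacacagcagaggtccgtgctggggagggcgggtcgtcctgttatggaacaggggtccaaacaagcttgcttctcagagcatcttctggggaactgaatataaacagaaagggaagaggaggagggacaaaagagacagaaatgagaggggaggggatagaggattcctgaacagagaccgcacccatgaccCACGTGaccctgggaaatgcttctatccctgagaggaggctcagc
CD44, chr11:35138921-35139170, plus strand: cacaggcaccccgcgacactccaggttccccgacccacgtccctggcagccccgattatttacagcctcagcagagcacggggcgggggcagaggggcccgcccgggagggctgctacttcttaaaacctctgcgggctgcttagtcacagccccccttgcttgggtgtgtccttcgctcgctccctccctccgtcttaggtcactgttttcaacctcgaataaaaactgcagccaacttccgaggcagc

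Of 5 motifs searched on both strands, 2 were found in the members' windows. The CDX motif CNATAAA stood as CTATAAA 30 to 24 bases before the start of 1 of the 4 DPEP1 windows, and 8.93% of all 35116 windows hold that motif. The same letters contain TATAAA, the core of a TATA box, so the match overlaps another motif. The E-box CACGTG stood 46 to 41 bases before the start of CEACAM5 and 45 to 40 bases before the start of CEACAM6, and 6.34% of all windows hold it. The windows of those paralogues were identical in 190 of 258 aligned columns, 73.6%, so the shared match is not independent in each. The HNF4 motif CAAAGNNCA (4.44% of all windows), the TCF motif CTTTGAT (2.26%) and the AP-1 motif TGANTCA (6.57%) had no match in the 11 windows. The CD44 window held 15 CpG and 62.4% G and C, the DPEP1 window shown 3 CpG and 56.4%, against medians of 11 CpG and 58.0% over all windows. The other DPEP1 windows, which had no motif match, held 12, 5 and 9 CpG and 62.8, 61.6 and 59.2% G and C. These matches describe letters in a window and say nothing of binding, and which DPEP1 start HCT116 uses was not tested.

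Depth ran between 9871667 and 14862268 gene counts on days A to C, between 22972412 and 24887785 on day D, and between 26491576 and 34790193 in HEK293. Levels are counts per 1000000 gene counts (CPM), which are not corrected for gene length, so they are compared here between libraries and not between genes. A level of 3 counts, taken as the limit of detection, came to between 0.0862 and 0.304 CPM. All 10 of the epithelial markers listed (keratins, claudins, CDH1 and others) averaged at least 1 CPM in every HCT116 group. Their summed level was 4424 to 5853 CPM in E7 libraries and 4125 to 6604 CPM in controls of days A to C. In the E7 comparison 3 of the 10 passed, against 13.9% of all genes tested. KRT19 was higher by 0.36, and CDH1 and AP1M2 were lower by 0.73 and 0.85 on the log2 scale. HEK293 markers summed to 80.3 to 87.7 CPM in E7 libraries and 144 to 170 CPM in controls. Of 5 tested 2 passed, both lower in E7, against 6.32% of all genes lower, and their part in the results was not tested. Leukocyte markers summed to at most 3.74 CPM, fibroblast markers to at most 32.9 CPM and endothelial markers to at most 1.54 CPM in any HCT116 library. Of the leukocyte markers 2 were tested in E7 and 2 passed, 1 higher and 1 lower. The higher one, LYZ, was not tested in 18qNE or 18qE, nor between control clones or days. It may have had enough counts only through the E7 clone, so its direction is given as a description. In bulk RNA, fewer cells that express a gene and less RNA per cell cannot be told apart.

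Across HCT116 the markers fell into 4 with a mean of at least 1 CPM over the 22 libraries (DPEP1, SDR16C5, EPCAM and CD44) and 6 near 0. In the clone deleted for E7, DPEP1 and SDR16C5 were nearly absent, and EPCAM and CD44 did not pass the test. No marker passed in the 18qNE or 18qE clones. The dipeptidase DPEP1 and the hyaluronan receptor CD44 also differed between control clones, and DPEP1, SDR16C5 and CD44 between days of extraction.

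**Figure D1:**
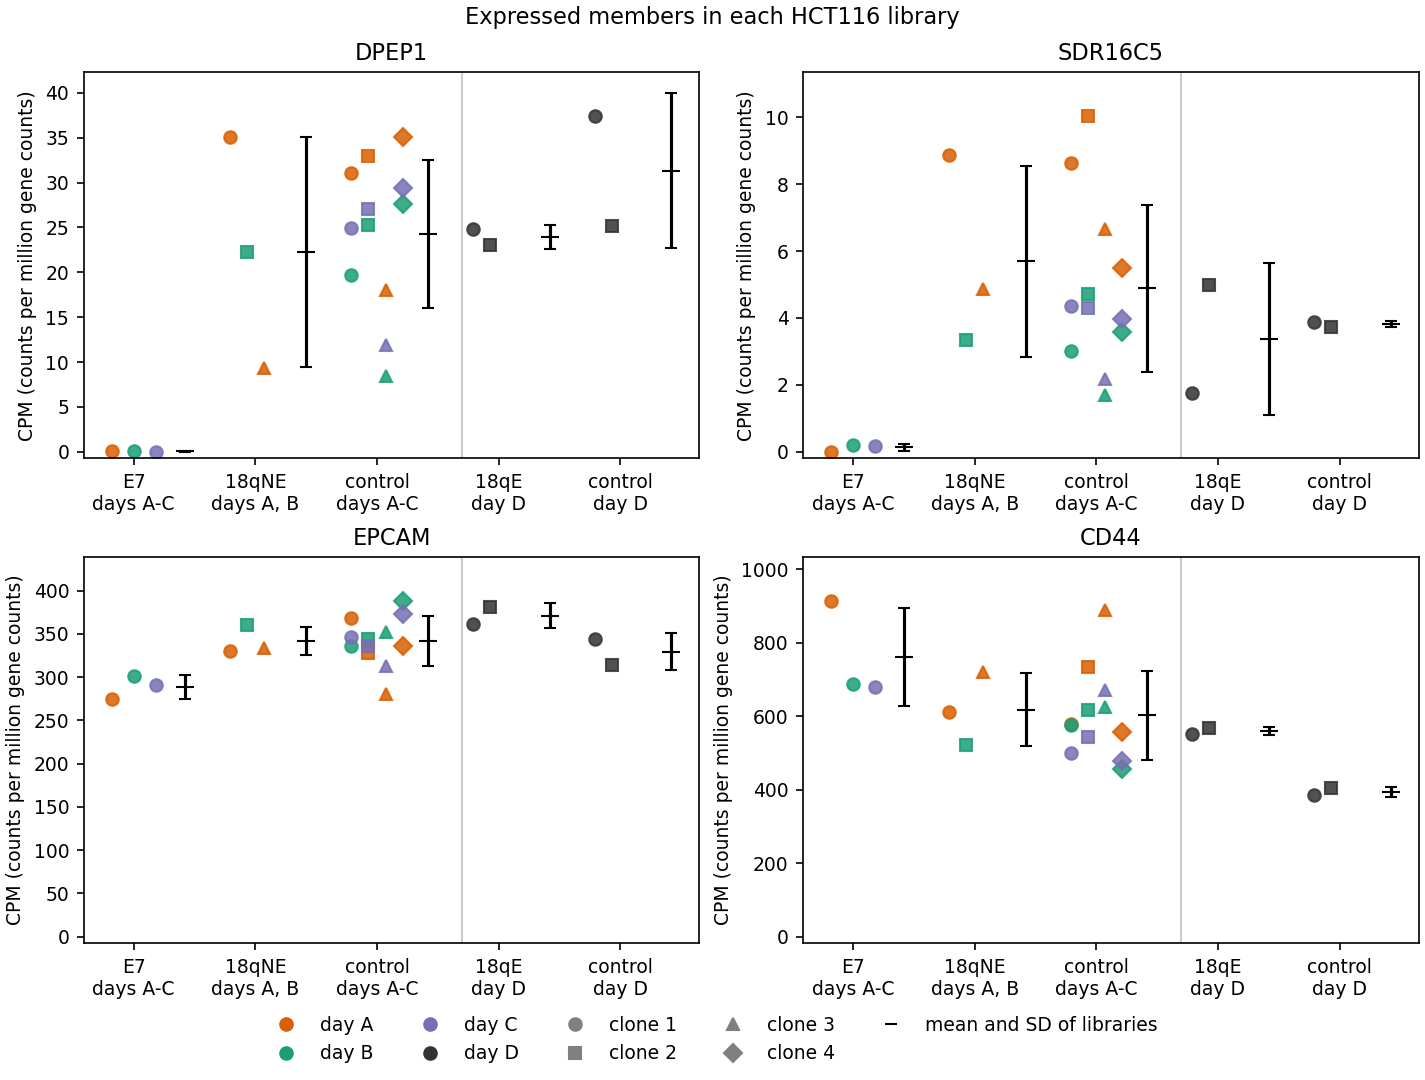
Level of DPEP1, SDR16C5, EPCAM and CD44 in CPM in each of the 22 HCT116 libraries, by group, with E7 left of 18qNE and the controls of days A to C, and 18qE left of its day D controls. Points are libraries, coloured by day and shaped by clone, and bars are group means with SD; DPEP1 and SDR16C5 lie near 0 in the 3 E7 libraries, against 8.49 to 35.1 CPM for DPEP1 in the controls of days A to C.

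DPEP1, the dipeptidase, had 0.0673, 0.0702 and 0 CPM in the E7 libraries of days A, B and C, which are 1, 1 and 0 counts. In the 12 control libraries it had a lowest level of 8.49 CPM, a median of 26.2 CPM and a highest of 35.1 CPM. Every E7 library thus lay at or near 0 and below every control library. With 2 counts in all in E7 against 3648 in controls, DPEP1 was 499-fold lower in E7, with an exact 95% counting interval of 138-fold to 4119-fold. The fitted log2 change was −8.84 (standard error 0.88, adjusted p = 0.001089, edgeR quasi-likelihood test). Of 17664 genes tested, 13.9% passed this test at the threshold of 0.05, 7.58% higher and 6.32% lower in E7, and 2 of the 5 markers tested passed, both lower. DPEP1 was the 4th furthest lower of all genes tested.

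SDR16C5, the retinol dehydrogenase, had 0, 0.211 and 0.174 CPM in the E7 libraries, which are 0, 3 and 2 counts. The control libraries had a lowest level of 1.70 CPM, a median of 4.32 CPM and a highest of 10.0 CPM. The groups did not overlap. SDR16C5 was 41.1-fold lower in E7 by pooled counts, 5 against 751, with a counting interval of 17.5-fold to 127-fold. The fitted log2 change was −5.29 (standard error 0.52, 95% interval −6.50 to −4.08, adjusted p = 0.00108, edgeR), the 76th furthest lower. The test summed the days of each clone and assumed that the single E7 clone varies as the control clones do. DPEP1 and SDR16C5 passed in all 13 alternatives tried, among them with the 18qNE clones in place of the controls.

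EPCAM, the adhesion molecule, had 274, 302 and 291 CPM in the E7 libraries. The control libraries ran between 280 and 388 CPM with a median of 340 CPM. The E7 levels lay at the low edge of the control range and overlapped it. The log2 change of −0.23 (95% interval −0.44 to −0.02) did not pass after adjustment (adjusted p = 0.1416, edgeR). When each library was a replicate and day a block it was −0.24 and passed (adjusted p = 0.01661, edgeR), a fit that counts the days of 1 clone as separate samples.

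CD44, the hyaluronan receptor, had 915, 688 and 680 CPM in the E7 libraries. The control libraries ran between 456 and 890 CPM with a median of 578 CPM. The E7 library of day A exceeded every control, and the other two lay inside the control range. The log2 change of 0.36 (95% interval −0.09 to 0.80) did not pass (adjusted p = 0.2615, edgeR). Without control clone 3, which had the highest CD44 of the control clones, it was 0.47 and passed (adjusted p = 0.03508, edgeR).

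The other 6 markers were near 0 in every HCT116 group, so that a fall in any deletion could hardly be detected at this depth. In E7 the upper limits of their pooled counting intervals ran between 0.0909 CPM for CEACAM6 and 0.216 CPM for GPA33 and LGALS4. CEACAM5 had no count in 18 of the 22 libraries and 5 counts in all, 0.0155 CPM when pooled (exact Poisson 95% interval 0.00502 to 0.0361). CEACAM6 had no count in 19 libraries and 3 counts in all, 0.00927 CPM when pooled (interval 0.00191 to 0.0271). Both antigens were almost without reads in this colorectal line. They are close paralogues, and their counts are uncertain where a read matches both.

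TSPAN8, a tetraspanin of the cell surface, had 11 counts in all and none in 14 libraries, 0.0340 CPM when pooled. The intestinal cadherin CDH17 had 18 counts, with none in 8 libraries, 0.0556 CPM when pooled. LGALS4, a galectin of the intestinal lining that binds sugars, had 26 counts, with none in 5 libraries, 0.0804 CPM when pooled. GPA33, the A33 antigen, was the best covered of the 6 with 55 counts, none in 2 libraries and 0.170 CPM when pooled (interval 0.128 to 0.221). Its largest count in any library was 8.

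By group, the few reads of these genes did not gather in any one deletion. GPA33 had 3 counts in the 3 E7 libraries and 28 in the 12 control libraries of days A to C, a ratio of 2.55-fold lower in E7 with a counting interval of 0.788-fold to 13.1-fold. It was the only one of the 6 with enough counts to be tested there and did not pass (adjusted p = 0.421, edgeR). It had 4 counts in 18qNE libraries, and 10 in the 18qE libraries against 10 in the day D controls. LGALS4 had 3 counts in E7 and 3 in 18qNE libraries against 15 in their controls, and 2 in 18qE against 3 in day D controls. CEACAM5 had 1 count in E7 and 0 in 18qNE libraries against 1 in their controls, and 2 in 18qE against 1 in day D controls. CDH17 had 2 counts in E7 and 2 in 18qNE libraries against 9 in their controls, and 3 in 18qE against 2 in day D controls. TSPAN8 had 1 in E7 and 3 in 18qNE against 4 in their controls, and CEACAM6 0 in E7 and 1 in 18qNE against 2. These counts are too few to set any group apart.

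**Figure D2:**
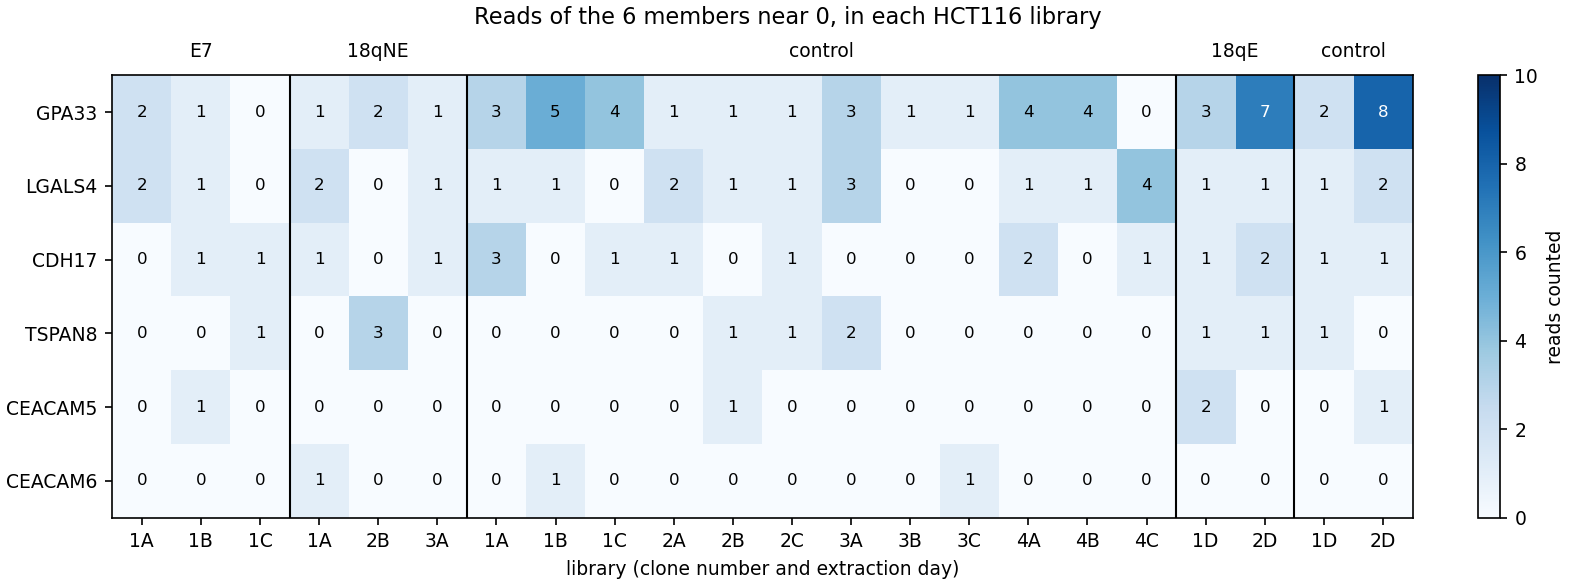
Read counts of GPA33, LGALS4, CDH17, TSPAN8, CEACAM5 and CEACAM6 (rows) in each of the 22 HCT116 libraries (columns, named by clone and day), with each deletion left of its controls. Each cell prints and shades 1 count; no library exceeds 8 counts, reached by GPA33, and CEACAM5 and CEACAM6 are at 0 in 18 and 19 libraries.

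In the 18qNE clones all 4 expressed markers had levels inside the control range or level with its edge. DPEP1 had 35.1, 22.3 and 9.38 CPM in 18qNE clones 1, 2 and 3, against 8.49 to 35.1 CPM in controls. Clone 1 stood level with the highest control library and clone 3 near the lowest. The log2 change was −0.14, with a 95% interval of −1.02 to 0.73. SDR16C5 had 8.87, 3.34 and 4.88 CPM in these clones and a log2 change of 0.04 (interval −0.68 to 0.75). EPCAM averaged 341 ± 16.1 CPM in 18qNE clones and 342 ± 28.4 CPM in controls (SD, n = 3 and 12 libraries), a log2 change of 0.02 (interval −0.19 to 0.23). CD44 averaged 618 ± 98.8 CPM in 18qNE clones and 602 ± 120 CPM in controls, a log2 change of −0.01 (interval −0.36 to 0.34). The control CPM here are of days A to C, while the log2 changes used control days A and B only. The 12 control libraries are of 4 clones, so their SD mixes clones and days.

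In the 18qE clones of day D, DPEP1 had 24.9 and 23.0 CPM, against 37.4 and 25.2 CPM in controls. Both 18qE values lay below both controls, with a log2 change of −0.35 and an interval of −0.86 to 0.16. SDR16C5 had 1.77 and 4.98 CPM in 18qE clones, against 3.88 and 3.74 CPM in controls, on either side of them. EPCAM had 361 and 381 CPM, against 344 and 314 CPM in controls, a log2 change of 0.21 (interval −0.13 to 0.54). CD44 had 553 and 567 CPM in 18qE clones, against 385 and 404 CPM in controls, so that the groups did not overlap. With so few libraries this does not set CD44 apart, and the share of all genes so separated was not counted. The log2 change of 0.54 for CD44 (standard error 0.15, interval 0.20 to 0.88) had an unadjusted p of 0.006617 and an adjusted p of 0.9999 (edgeR).

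No gene passed in either of these comparisons, so none of the 4 markers tested in each was set apart from the rest (0% of 15524 genes for 18qNE and 0% of 15261 genes for 18qE, edgeR). At an unadjusted p under 0.05 there were 505 genes for 18qNE and 391 for 18qE, and DESeq2 called 13 and 19, none of them one of the 10 markers. The intervals above still allow DPEP1 in 18qNE clones to be lower by 1.02 or higher by 0.73 on the log2 scale. The control values of E7 and 18qNE come from the same 4 clones, and those comparisons therefore share their reference.

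**Figure D3:**
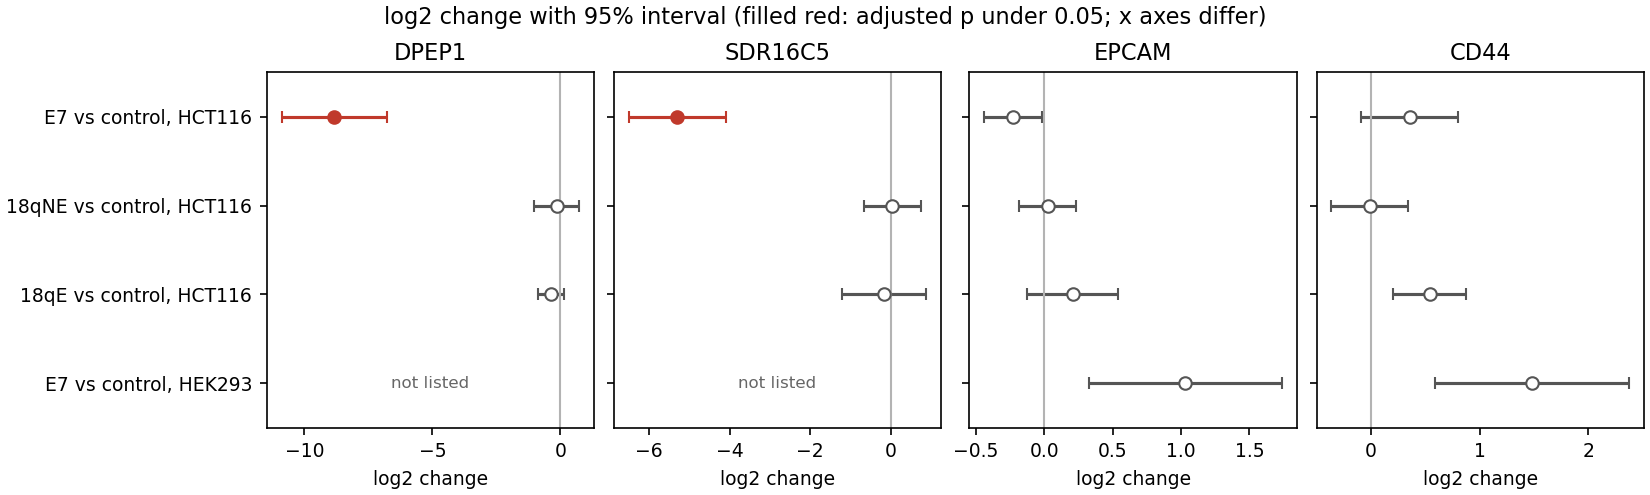
Log2 change with its 95% interval for each expressed marker in each deletion group against its own controls, from edgeR; the x axes differ between genes, and filled red symbols passed the threshold of 0.05 on the adjusted p. DPEP1 (−8.84) and SDR16C5 (−5.29) in HCT116 E7 stand far left of 0, and every change in 18qNE and 18qE lies within 1 log2 unit of 0.

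The control clones themselves did not hold these markers at 1 level. DPEP1 pooled over days A to C was 25.4, 28.6, 13.2 and 30.5 CPM in control clones 1, 2, 3 and 4, lowest in clone 3. The largest fitted difference between 2 clones was 1.25 on the log2 scale (adjusted p = 3.839e-05, edgeR with the day as a term). In this test over all clones 7.80% of 14988 genes passed, and 2 of the 4 markers tested, DPEP1 and CD44. Set pairwise, DPEP1 in clone 3 was lower by 0.98 than in clone 1 and by 1.14 than in clone 2 (adjusted p = 0.0002167 and 4.272e-05, edgeR). In clone 4 it was higher by 1.25 than in clone 3 (adjusted p = 1.112e-05, edgeR). Between 4.00% and 7.57% of genes passed in those pairs with clone 3, and 0.0534% between clones 1 and 2.

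CD44 ran in another order over the same clones, with 557, 635, 740 and 494 CPM in clones 1 to 4, highest in clone 3. Its largest difference was 0.58 on the log2 scale (adjusted p = 0.001821, edgeR). CD44 in clone 4 was lower than in clone 3 by 0.58 (adjusted p = 0.0004112, edgeR), and clone 3 against clone 2, a difference of 0.24, did not pass (adjusted p = 0.1479). Without day C the test over all clones did not pass for CD44 (0.63, adjusted p = 0.1162, edgeR). SDR16C5 was 5.50, 6.46, 3.75 and 4.30 CPM in clones 1 to 4 and did not pass (0.85, adjusted p = 0.09666, edgeR). It passed without day A (1.18, adjusted p = 0.03397, edgeR) and with no filter on low counts (0.85, adjusted p = 0.002196, edgeR). Set pairwise, SDR16C5 in clone 3 was lower by 0.85 than in clone 2 (adjusted p = 0.03904, edgeR). EPCAM varied least, with 351, 336, 313 and 367 CPM, a largest difference of 0.17 (adjusted p = 0.5434, edgeR). The median of that largest difference over all genes was 0.26.

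Set against this spread, DPEP1 in the E7 clone was far below the lowest control clone, with a pooled level of 0.0493 CPM in E7 and 13.2 CPM in control clone 3. SDR16C5 had a pooled level of 0.123 CPM in the E7 clone and 3.75 CPM in the lowest control clone. CD44 pooled over days was closer, with 769 CPM in the E7 clone and 740 CPM in control clone 3.

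Genes of the pathways around these markers differed between control clones as well. Of 13 tested partners of CD44 in hyaluronan handling, splicing and shedding, 8 passed between clones, against 7.80% of all genes. The furthest apart was CEMIP, which takes part in hyaluronan breakdown, with 7.82, 14.7, 5.07 and 26.2 CPM in clones 1 to 4 (2.51 on the log2 scale). MMP14, a membrane protease that can cleave CD44, had 6.29, 5.26, 19.4 and 11.8 CPM (1.89), highest in clone 3. SPP1, which encodes the CD44 ligand osteopontin, and the hyaluronan synthase HAS3 also passed (1.75 and 0.64), but SPP1 did not pass without any 1 of the days (adjusted p between 0.06271 and 0.2016, edgeR) and HAS3 not without day C (adjusted p = 0.06912, edgeR).

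Around SDR16C5, 8 of 13 tested genes of retinol metabolism passed between clones, against 7.80% of all genes. Among them were CYP26A1, which breaks down retinoic acid (1.80), the retinol dehydrogenase RDH10 (0.92) and the retinal reductase DHRS3 (0.82). CYP26A1 did not pass without day C (adjusted p = 0.145, edgeR), nor DHRS3 without day B or C (adjusted p = 0.09148 and 0.3746, edgeR). Single genes of other lists were far apart too, such as DPP4, a membrane peptidase (2.87), and KRT20, an intestinal keratin (2.89). Among tetraspanins 4 of 21 passed, and among galectins and their partner 1 of 5, LGALS3BP (0.86), beside the same share of all genes.

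DPEP1, SDR16C5 and CD44 differed between days of extraction in the control clones, highest on day A, in a test that 38.2% of all genes passed. SDR16C5 averaged 7.71 ± 2.02 CPM on day A, 3.25 ± 1.26 CPM on day B and 3.70 ± 1.02 CPM on day C (SD, n = 4 clones). The largest difference between days was 1.21 on the log2 scale (adjusted p = 0.0003115, edgeR with the clone as a term). DPEP1 averaged 29.3 ± 7.66, 20.3 ± 8.52 and 23.3 ± 7.83 CPM on days A, B and C, a difference of 0.53 (adjusted p = 0.002916, edgeR). In each of the 4 control clones day A had the highest DPEP1 and SDR16C5.

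CD44 averaged 690 ± 155, 569 ± 78.1 and 548 ± 86.4 CPM on days A, B and C (0.28, adjusted p = 0.01773, edgeR). Without control clone 2 or clone 3 its day difference was 0.25 and did not pass (adjusted p = 0.1391 and 0.0881, edgeR). EPCAM averaged 328 ± 36.4, 355 ± 23.0 and 342 ± 24.8 CPM and did not pass (0.17, adjusted p = 0.2032, edgeR). Without control clone 1 it was 0.27 and passed (adjusted p = 0.01553, edgeR). Days differed widely, since 38.2% of 14988 genes passed, and 3 of the 4 markers tested is read against that share. Between days C and B only 5 genes passed (0.0334%), none of them a marker.

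Day and library preparation or depth cannot be told apart. The E7 and control libraries held days A, B and C alike. With day A left out of both groups, a setting chosen after the data were seen, DPEP1 in E7 was at −8.92 and SDR16C5 at −4.10, and both passed (adjusted p = 0.00233 and 0.006251, edgeR).

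Day D libraries of control clones 1 and 2 were set against their libraries of days A to C. In that test 0.453% of 14782 genes passed, 0.183% higher and 0.271% lower on day D, and none of the 4 markers tested did. DPEP1 was higher by 0.29 on day D on the log2 scale (adjusted p = 0.5483, edgeR) and SDR16C5 lower by 0.54 (adjusted p = 0.6009, edgeR). CD44 was lower by 0.51 (standard error 0.13, adjusted p = 0.1288, edgeR) and passed in DESeq2 (adjusted p = 0.006924). The low CD44 of the day D controls stands beside the 18qE comparison above, which used the same libraries.

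In the E7 clone single genes around the 10 markers passed in both directions. Among retinol genes 2 of 15 tested passed, both higher in E7, a count near the 13.9% of all genes. The list median was −0.06 against −0.01 over all genes. Of those 2, STRA6 had enough counts for the test only through the E7 clone, so it could hardly have come out lower. ALDH1A3, which makes retinoic acid, averaged 273 ± 26.9 CPM in E7 libraries and 94.4 ± 17.6 CPM in controls (SD, n = 3 and 12), a log2 change of 1.55 (adjusted p = 0.001323, edgeR). STRA6, the receptor that takes up retinol from its carrier, had 24 counts in E7 and 1 in controls. That is 87.8-fold higher with a counting interval of 14.3-fold to 3610-fold, given as a description. GGT7, a relative of the enzymes that start glutathione breakdown, was the only 1 of 4 tested peptidases and glutathione genes to pass, at −1.03 (4.87 CPM in E7 libraries and 10.0 CPM in controls).

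Of the 13 tested partners of CD44, 3 passed in E7, against 13.9% of all genes. EZR, which links CD44 to the actin skeleton, averaged 2514 ± 79.8 CPM in E7 libraries and 1274 ± 152 CPM in controls, a log2 change of 0.99 (adjusted p = 0.001982, edgeR). Its groups did not overlap. HYAL1, a hyaluronidase, fell by 2.61 on the log2 scale, with 0.861 CPM in E7 libraries and 5.31 CPM in controls. The hyaluronan synthase HAS3 fell by 0.93 (84.4 CPM in E7 libraries and 164 CPM in controls), but did not pass without control clone 2 (adjusted p = 0.06219, edgeR) or without the E7 library of day A (adjusted p = 0.05022, edgeR).

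Among 21 tetraspanins and partners 3 were higher and 2 lower in E7, against 7.58% and 6.32% of all genes. CD9, a widespread tetraspanin, averaged 248 ± 4.85 CPM in E7 libraries and 157 ± 19.8 CPM in controls (log2 change 0.67). TSPAN9 was higher by 0.78 and TSPAN14 lower by 0.90. PTGFRN, a partner of CD9, was higher by 0.38, and did not pass without control clone 1 (adjusted p = 0.05665, edgeR). The galectins LGALS1 and LGALS3 were higher, by 0.73 and 0.41, 2 of 5 tested, against 7.58% of all genes. LGALS3 did not pass without the E7 library of day A (adjusted p = 0.09886, edgeR), where its value was 0.23.

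Of 7 tested cadherins and catenins only CDH1 (E-cadherin) passed, against 13.9% of all genes. It had 48.3 ± 4.61 CPM in E7 libraries and 80.9 ± 17.2 CPM in controls, a log2 change of −0.73 (adjusted p = 0.01848, edgeR). Without control clone 2 it missed the threshold (adjusted p = 0.05109, edgeR). None of the 6 tested relatives and partners of EPCAM passed. CLDN7, the claudin that binds EPCAM, had 80.5 CPM in E7 libraries and 112 CPM in controls (−0.47, adjusted p = 0.08923, edgeR), and the protease inhibitor SPINT2 had 281 CPM in E7 libraries and 261 CPM in controls. Neither tested relative of CEACAM5 passed, with CEACAM19 at 3.26 CPM in E7 libraries and 3.69 CPM in controls, and CEACAM1 at 0.771 CPM in E7 libraries and 0.863 CPM in controls.

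Among 12 other intestinal and tumour markers tested, 1 was higher and 1 lower in E7, against 7.58% and 6.32% of all genes. HNF4A, a transcription factor of gut and liver epithelium, averaged 0.258 ± 0.148 CPM in E7 libraries and 9.16 ± 2.81 CPM in controls. Its log2 change was −5.06 (standard error 0.35, adjusted p = 0.0003019, edgeR). The mucin MUC1 was higher by 0.79 (4.91 CPM in E7 libraries and 2.83 CPM in controls) but missed the threshold once control clone 1 or 2 was left out (adjusted p = 0.08037 and 0.08229, edgeR), or day C of E7 (adjusted p = 0.06637, edgeR). The tetraspanins, the list with the most genes tested, also had the most past the threshold, 5 of 21, against 13.9% of all genes. By share they were not foremost, since 2 of 5 galectins passed. No related gene passed in 18qNE, 18qE or HEK293 E7 libraries.

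**Figure D4:**
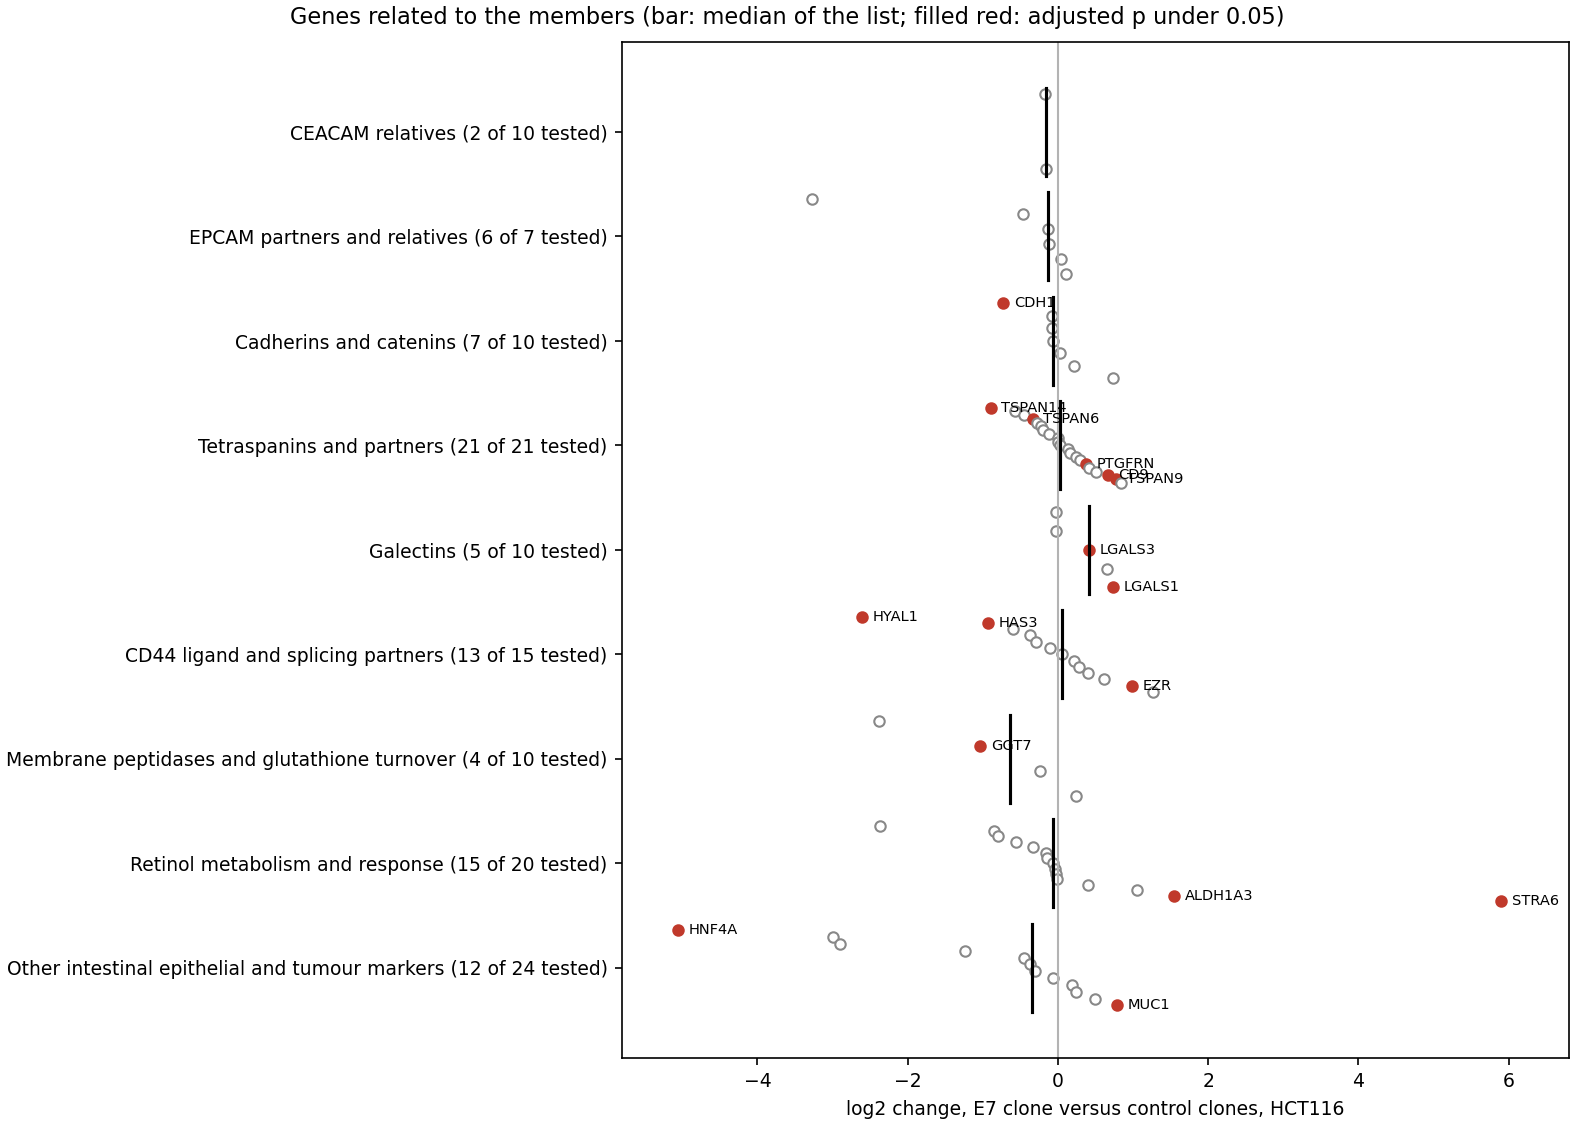
Log2 change in E7 over controls in HCT116 for the tested genes of each related list, by list, with filled red points for genes past the adjusted threshold of 0.05 (edgeR) and a bar at each list's median. Most points lie near 0, with HNF4A at −5.06 and HYAL1 at −2.61 on the low side and STRA6, whose fitted value rests on 24 counts in E7 and 1 in controls, and ALDH1A3 (1.55) on the high side.

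The genes whose level followed each expressed marker most closely over the 22 HCT116 libraries were chosen among 11017 genes by Pearson correlation of log2(CPM + 0.5). For DPEP1 these were TIMM17B (r = 0.958), SYK (0.957) and ZNF701 (0.955). Without the 3 E7 libraries the same correlations were 0.560, 0.687 and 0.566 over 19 libraries. For SDR16C5 they were the gene listed as ENSG00000155130.5 (0.959), HNF4A (0.934) and PACSIN1 (0.930), and 0.882, 0.742 and 0.754 without E7. These correlations are descriptions over libraries that share clones, days and depth, and are much lower without E7 for the DPEP1 set.

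The choice of these 6 genes used the E7 libraries, so their changes in E7 are given as a description; all 6 were lower there, in a test that 13.9% of all genes passed. SYK, which encodes a signalling kinase, averaged 2.90 ± 0.660 CPM in E7 libraries and 26.9 ± 9.02 CPM in controls (log2 change −3.20). Its pooled level was 25.9, 28.8, 18.2 and 35.2 CPM in control clones 1 to 4, libraries that its choice also used. PACSIN1 had a log2 change of −4.04 in E7, ZNF701 of −2.12, TIMM17B of −1.73 and ENSG00000155130.5 of −1.41.

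For EPCAM the closest were MRPL13 (0.845), HDDC2 (0.839) and EIF3M (0.833), and for CD44 MTCL1 (0.874), TNIK (0.848) and GPC4 (0.845). Without the E7 libraries these ran between 0.732 and 0.853, so that the likeness rested less on E7. In E7, MRPL13 had a log2 change of −0.60 and HDDC2 of −0.68, given as a description for the same reason, and EIF3M, MTCL1, TNIK and GPC4 did not pass.

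Most genes next to DPEP1 and SDR16C5 did not pass in E7, where 7.58% of all genes were higher and 6.32% lower. Of the 5 tested genes on each side of DPEP1 only ANKRD11 passed in E7, higher by 0.58, and the median of the 10 was 0.07. Beside SDR16C5 only CHCHD7 passed, lower by 0.71, with a median of −0.07. Around CD44 3 of 10 neighbours were higher, EHF by 2.49, APIP by 0.51 and TRIM44 by 0.55, with a median of 0.38. Around CDH17 4 of 10 were lower, MIR378D2HG by 1.55, PDP1 by 0.79, VIRMA by 0.60 and TMEM67 by 0.54, with a median of −0.57. The neighbours named here were chosen after their values were seen.

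In HEK293 the files list 11887 genes, and of the 10 markers only EPCAM and CD44 are among them. DPEP1, SDR16C5, CEACAM5, CEACAM6, LGALS4, CDH17, GPA33 and TSPAN8 are not listed, and no value for them was analysed. The rule for listing is not given, and the lowest summed count of a listed gene was 5. EPCAM pooled over days A to C in the 4 HCT116 control clones ran between 313 and 367 CPM, against 133 and 76.5 CPM in the HEK293 control clones. CD44 ran between 494 and 740 CPM in HCT116 clones, against 21.9 and 10.3 CPM in HEK293 clones. Neither pair of groups overlapped, and the share of all genes so separated was not counted.

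Over the genes listed in both lines, CD44 was higher in HCT116 by 5.48 on the log2 scale (standard error 0.38, adjusted p = 3.72e-05, edgeR) and EPCAM by 1.95 (standard error 0.21, adjusted p = 0.0002417, edgeR). Between the lines 57.0% of 11805 genes passed, 26.0% higher and 31.1% lower in HCT116, so that passing alone sets neither marker apart. CD44 was the 8th furthest higher and EPCAM the 259th. EZR and both tested EPCAM partners, SPINT1 and SPINT2, were also higher in HCT116, by 2.64, 2.22 and 1.24. Line, day and depth cannot be told apart here.

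With E7 deleted in HEK293, EPCAM had 216 and 228 CPM, against 133 and 76.5 CPM in control clones 1 and 2. CD44 had 47.2 and 45.9 CPM in E7 libraries, against 21.9 and 10.3 CPM in controls. Both E7 libraries lay above both controls for each gene, and the controls were further from each other than the E7 libraries were. With so few libraries this order sets neither gene apart, and the share of all genes so separated was not counted. The log2 changes were 1.03 for EPCAM (95% interval 0.33 to 1.74, adjusted p = 0.27, edgeR) and 1.48 for CD44 (interval 0.59 to 2.37, adjusted p = 0.2423, edgeR). Neither of the 2 markers tested passed, in a test that called 0.0254% of 11806 genes (0.00847% higher and 0.0169% lower in E7).

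These calls moved with the settings. Both markers passed in DESeq2 (adjusted p = 0.02632 for EPCAM and 0.004042 for CD44) and with the library number as a block (adjusted p = 0.01397 and 0.0002402, edgeR). In both of these runs far more genes were called than in the main fit, as counted in the closing section. The labels pair no E7 library with a control clone, so the block joins them by number alone. Without control 1 the changes were 1.42 for EPCAM and 2.07 for CD44, and without control 2 they were 0.71 and 1.06. There the lone control was assumed to vary like the E7 libraries, so only the changes are given. The E7 libraries carry the same clone label, so their spread may be that of 1 clone. The epithelial markers listed in HEK293, 3 of 10, summed to 795 and 929 CPM in E7 libraries and 348 and 585 CPM in controls. HEK293 markers, 8 of 10 listed, summed to 566 and 577 CPM in E7 libraries and 405 and 502 CPM in controls. Of these 8, 1 passed, NEFM, higher by 5.54 (adjusted p = 0.01977, edgeR), against 0.0254% of all genes. The part of either list in the difference was not tested.

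The E7 change of EPCAM in HCT116 minus that in HEK293 was −1.28 (standard error 0.31, adjusted p = 0.07199, edgeR interaction term). For CD44 it was −1.14 (standard error 0.47, adjusted p = 0.2367, edgeR). Neither passed, in a test that called 3.38% of 11849 genes (1.93% with the higher and 1.45% with the lower change in HCT116). Without HEK293 control 1 the difference was −1.68 for EPCAM and −1.73 for CD44, and without HEK293 control 2 it was −0.96 for EPCAM. These fits leave 1 HEK293 control, so only the differences are given.

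**Figure D5:**
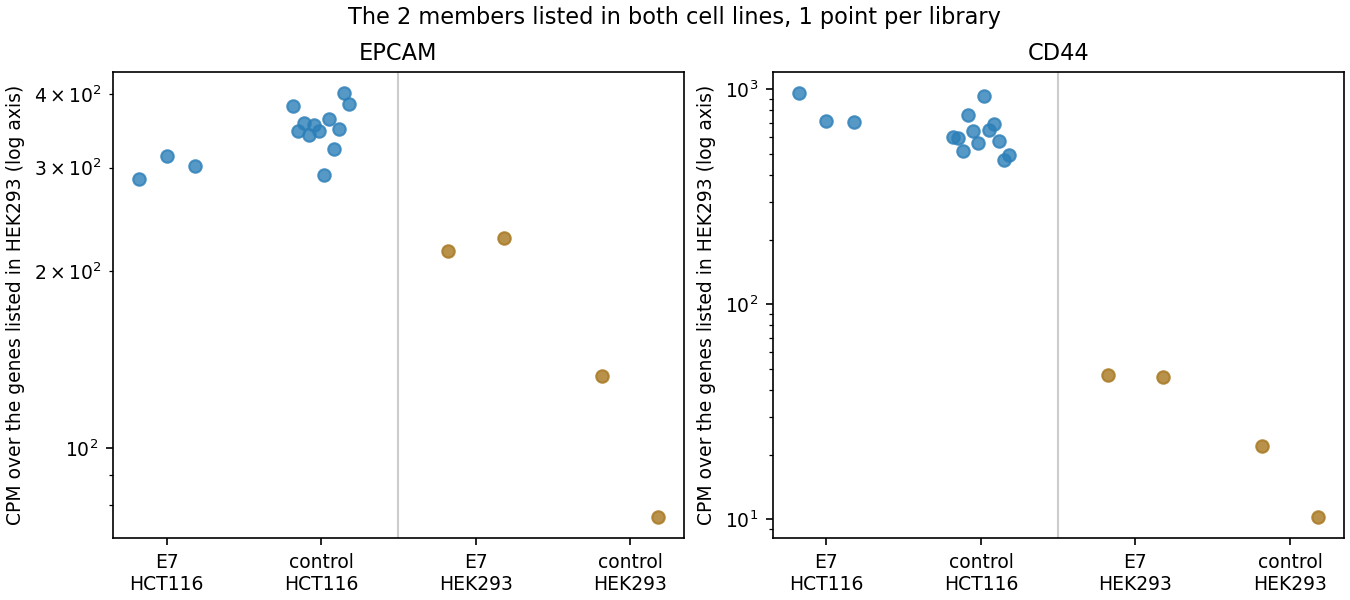
Level of EPCAM and CD44 on a log axis, in CPM over the genes listed in both lines, with E7 left of control in each line. Points are libraries, and the HCT116 controls are those of days A to C; in HEK293 the E7 libraries have 216 and 228 CPM of EPCAM against 133 and 76.5 CPM in controls, and both genes are lower in HEK293 controls than in any HCT116 control.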

How the data were processed

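RNA was measured in 26 of the 32 samples of the series; the ChIP and interaction profiles were not analysed here. Per the labels' protocols, Trizol RNA (1 ug per library) went into single-end TruSeq libraries for a NextSeq500. The authors deposited raw read counts per gene. Per the submitters' processing notes, the tools included TopHat2 and HTSeq 0.6.1 and the build was hg19; the sources used here give no strand setting, so overlapping and antisense genes are uncertain. Lines of the count tables that name no gene were left out of library sizes: no feature took 7.78 to 14.3% of reads on days A to C and 6.34 to 7.21% on day D, ambiguous reads took 2.86 to 3.60%, and reads aligned more than once took 12.3 to 24.8%. The HEK293 tables list 11887 genes and have no such lines; these genes hold 95.6 to 97.0% of HCT116 gene counts. Symbols were matched for 51996 of 57820 IDs.

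Counts were tested with edgeR 4.0.16 (R 4.3.3; 2-sided quasi-likelihood F test, TMM normalization, genes kept by filterByExpr at a minimum count of 10) over all genes, with Benjamini-Hochberg adjustment and a threshold of 0.05. Each clone's libraries were summed in the E7, 18qNE and line comparisons, for 18qNE over days A and B only. Tests between clones and days used the 12 control libraries, and there the value given is the largest fitted log2 difference. DESeq2 1.42.0 was an alternative, with its own size factors, besides RLE factors, no filter, other replicate units and leaving out each clone or library. The tests were checked on simulated counts. CPM were computed over gene counts with Python 3.11.15. Where groups are said not to overlap, the share of all genes without overlap was not counted. Intervals and floors cover counting error only, since reads carried no molecular identifiers. Where libraries are of 1 clone, p-values measure the spread between these samples, which may be technical. Genes named beside the 10 were, per related list, up to 4 past the threshold by size or else up to 2 of highest CPM, and the 3 genes most like each expressed marker; others are said to be chosen later. Some genes that the rule names are not reported here. The 10 genes and the lists were chosen with earlier results of these data known. Replicate numbers were not taken to pair samples in the main fits of 18qE, 18qNE and HEK293. Deviations of same-numbered libraries correlated by 0.0444 in 18qE, by between −0.1713 and 0.0512 in 18qNE and by 0.3328 in HEK293.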

Additional observations from a re-analysis of the deposited data

How the results depend on the processing

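Of 268 values of the 10 markers recomputed under other settings, 232 kept direction and side of the threshold, 17 newly passed, 3 no longer passed (all CD44, between clones or days) and 16 reversed, none of which passed. Of 441 values of related genes, 382 kept both, 46 no longer passed, 13 newly passed and 0 reversed. DPEP1 (−9.19 to −8.18) and SDR16C5 (−5.97 to −4.10) in HCT116 E7 passed in every alternative run. The reversals in 18qNE were EPCAM −0.0118 with no filter, and SDR16C5 −0.0967 with the day as a term, −0.161 on day A alone and −0.129 with the clone number as a replicate block. Leaving out 1 clone, 18qNE values ran −0.622 to 0.219 for DPEP1, −0.0323 to 0.0441 for EPCAM, −0.423 to 0.301 for SDR16C5 and −0.140 to 0.0986 for CD44, SDR16C5 in 18qE ran −1.03 to 0.373, and on day D DPEP1 ran −0.0820 to 0.613 and EPCAM −0.0051 to 0.0195. The number of genes called in HCT116 E7 was 5178 when each library was a replicate and day a block, 79 against the 18qNE clones, where of the related genes called only HNF4A, SYK and PACSIN1 still passed, and 1477 to 3087 leaving out 1 library or clone. In 18qNE it was 13 in DESeq2, 16 with no filter, 3 with the day as a term and 0 to 1 leaving out a clone. In 18qE it was 19 in DESeq2 and 0 to 132 leaving out a clone. In HEK293 E7 it was 463 in DESeq2, 670 with the number as a replicate block, 71 with both E7 libraries summed (chosen after the data were seen) and 74 to 6210 leaving out a library, with 2 markers called in DESeq2 and with the block, and 0 to 2 leaving out a library. Between control clones it was 1959 with no filter and 308 to 1694 leaving out a day, with 1 to 3 markers; between days 2228 to 6465 leaving out a clone; and for day D 353 in DESeq2, with 1 marker, 467 with no filter and 2 to 8 leaving out a clone. For the lines it was 3984 with day D controls, and for the interaction 92 to 4701 leaving out a library, with 0 to 2 markers. Same-numbered HEK293 libraries correlated by 0.3328, and those of E7 and control days by 0.3733 to 0.6565; the 18qE and 18qNE blocks changed no other call. The cause of these shifts was not tested. Depth limits any statement on the 6 markers near 0.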
